A study of Mus musculus with 2 samples.

Results

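Heat shock and chaperonin genes were followed in RNA from mouse colon lamina propria. Members were all gene symbols of the Hspa, Hspb, Hspd, Hspe, Hsph, Hsp90a, Dnaja, Dnajb, Dnajc and Cct2 to Cct8 families, with Tcp1, Hsf1 and Hsf2, and without the endoplasmic reticulum genes Hspa5, Dnajb9, Dnajb11 and Dnajc3. This rule took 86 of 27874 symbols, of which 9 are processed pseudogenes and 77 are genes. The set was named for the cytosol, but 9 of its members encode proteins of the mitochondrion, among them Hspa9, Hspd1 and Hspe1, and 8 encode proteins of the endoplasmic reticulum, among them Hspa13 and Dnajc10. It is therefore described here as the heat shock and chaperonin set.

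Heat shock proteins are chaperones that bind unfolded or partly folded proteins. HSP70 proteins bind short exposed stretches of a client and are driven by J-domain proteins, which bring clients and trigger ATP hydrolysis, and by exchange factors, which release the nucleotide. HSP90 acts later on signalling proteins, small heat shock proteins hold unfolded proteins without ATP, and the ring-shaped chaperonin CCT folds actin and tubulin. HSF1 is the transcription factor that induces many of these genes when unfolded proteins accumulate. In the colon, chaperones serve protein folding in the dividing crypt epithelium, in secretory cells and in the contractile muscle of the wall.

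RNA came from colon lamina propria, the connective tissue under the gut epithelium, of C57BL/6J mice, with 1 library of genotype K14/hyal1 and 1 labelled Control. The genotype name joins keratin 14, whose promoter is active in basal cells of stratified epithelia such as the skin, and Hyal1, a hyaluronan-cleaving enzyme. The study's title links stromal fibroblasts and hyaluronan to cross-talk between epithelia. The labels state neither age, nor how many animals were pooled, nor how the allele was made. Hyal1 had 3.77 CPM in K14/hyal1 and 3.36 CPM in Control, a ratio of 1.12 (0.879 to 1.42), so this gene does not check the labels. CPM are taken as reads in every 1000000 of the library total, a scale that was assumed. With 1 library for each genotype there was no replicate and no test, and every difference below is a difference between 2 libraries.

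Levels in CPM are not divided by gene length unless this is said. The table held an estimated 13813362 reads for K14/hyal1 and 25446562 for Control, so values of the K14/hyal1 library are the less precise. Bracketed intervals are exact 95% intervals for counting error only. A log2 ratio is log2 of (K14/hyal1 + 1) over (Control + 1), which understates differences of low genes. A symbol passed the filter at a mean of at least 2.31 CPM, and 66 of the 86 members did, as did 13563 symbols in all. The median log2 ratio of all those symbols was 0.21, so the whole table lay slightly towards K14/hyal1, and ratios are also given relative to it. Summed over all symbols the table held 475975 CPM in K14/hyal1 and 416434 CPM in Control, a ratio of 1.14. Each ratio as deposited includes this offset. Scaling to the median symbol changes each ratio by -0.23 on the log2 scale.

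Most members lay close to the rest of the transcriptome, and the chaperonin subunits as a group, the HSP90 gene Hsp90aa1 and the HSP60 and HSP10 pair lay above it. Hsp90aa1 and Hspa13 were at least 2-fold higher in the K14/hyal1 library and Hspa12a at least 2-fold lower. The 2 higher genes were 3.03% of the 66 members, against 3.75% of all symbols, and the lower gene was 1.52%, against 1.54% of all symbols. In either direction 5.29% of all symbols passed, so large differences were about as frequent among members as in the background. After scaling to the median symbol, 0 members were 2-fold higher, against 2.29% of all symbols, and only Hspa12a was 2-fold lower, against 2.65%. With a pseudocount of 0.1 in place of 1, Cct6a and Cct3-ps1 joined Hsp90aa1 and Hspa13, which made 4 members, against 5.54% of all symbols. At 1.5-fold, 14 members (21.2%) were higher and 5 (7.58%) lower, against 17.7% and 4.89% of all symbols. After scaling to the median symbol 4 of 66 members were 1.5-fold higher, against 8.14% of all symbols. On both scales the share of members that were higher lay near that of all symbols. The median log2 ratio of the 66 members was 0.31, which is 0.10 above that of all symbols. Together the 86 members took 0.437% of the CPM in the K14/hyal1 table and 0.390% in the Control table.

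**Figure D1:**
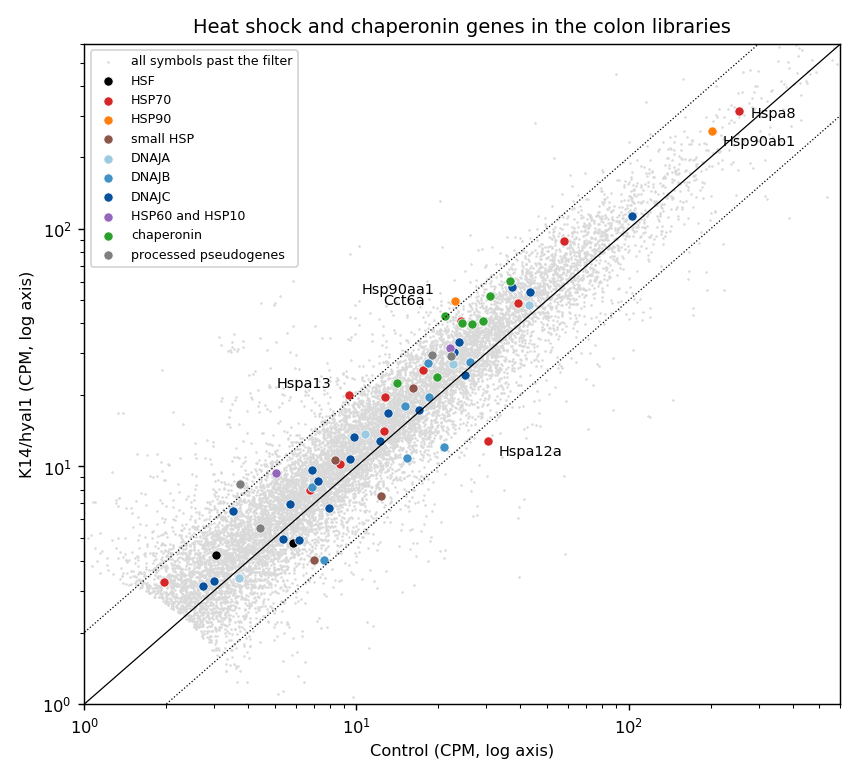
Level of each member past the filter in the K14/hyal1 library (vertical axis) against Control (horizontal axis), in CPM on log axes, with all symbols past the filter in grey. The solid line is equality and dotted lines are 2-fold; chaperonin subunits lie together above equality and Hspa12a lies below the lower dotted line.

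The regulators themselves were expressed at low levels and lay on either side of equality. Hsf1, the main stress-activated factor, had 4.76 CPM in K14/hyal1 and 5.84 CPM in Control, a ratio of 0.814 (0.664 to 0.993). Hsf2, a related factor with roles in development, had 4.24 CPM in K14/hyal1 and 3.04 CPM in Control, a ratio of 1.39 (1.10 to 1.76). Neither difference reached 1.5-fold on the log2 scale, and the interval of Hsf1 ends just below 1. HSF1 is regulated largely on the protein, which these data do not measure.

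Members known to be induced by HSF1 all had more CPM in K14/hyal1, by ratios from 1.19 for Hsph1 to 2.15 for Hsp90aa1. They were Hspa1a, Hspa1b, Hspa4l, Hspa8, Hsph1, Hsp90aa1, Hsp90ab1, Hspb1, Hspb8, Hspd1, Hspe1, Dnaja1, Dnajb1 and Dnajb4. The list thus holds Hspa8 and Hsp90ab1, which are described below as constitutive forms. Of the 14, each had a log2 ratio above the median of all symbols, where 50% of symbols do, and their median was 0.44. The list was drawn up with results of these data known. The inducible HSP70 genes Hspa1a and Hspa1b had 19.5 and 25.5 CPM in K14/hyal1, against 12.8 and 17.5 CPM in Control. Dnajb1, the inducible HSP40 that serves HSP70, had 18.1 CPM in K14/hyal1 and 15.1 CPM in Control, a ratio of 1.20 (1.07 to 1.33). Hsph1, an exchange factor of the HSP110 family, had 7.99 CPM in K14/hyal1 and 6.74 CPM in Control, a ratio of 1.19 (1.01 to 1.40). Their log2 ratios were only 0.03 and 0.01 above the median of all symbols. Only Hsp90aa1 among the 14 reached 2-fold, and it did not do so after any of the 3 other scalings.

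HSF1 binds inverted repeats of the unit GAA, so promoters of the members were searched for GAANNTTC and TTCNNGAA. Each of these reads the same on both strands, and the longer runs GAANNTTCNNGAA and TTCNNGAANNTTC, which are one another's reverse complement, contain both. Promoter windows of RefSeq on GRCm38.p6, from 250 bases before to 50 after the start, were found for 61 of the 86 members. A match to either short form was present in 19 of these (31.1%), against 17% of 27025 genes with a window and 13.8% of symbols past the filter. A gene was counted if any of its windows held a match, and the 27025 genes had 32851 windows. These shares therefore depend on how many starts are annotated for each gene. Of the 11 HSF1-inducible members with a window, 9 (81.8%) held a match. A run of 3 units was present in 4 members (6.56%), against 0.662% of all genes, and these were Hspd1, Hspe1, Hsph1 and Dnajb6. Hspa12a had a window without a match, and Hsp90aa1 and Hspa13 were not among the 61. To show what a match looks like, 5 windows that hold one are printed 5′ to 3′ along each gene's strand, with matches in capitals.
Hspe1: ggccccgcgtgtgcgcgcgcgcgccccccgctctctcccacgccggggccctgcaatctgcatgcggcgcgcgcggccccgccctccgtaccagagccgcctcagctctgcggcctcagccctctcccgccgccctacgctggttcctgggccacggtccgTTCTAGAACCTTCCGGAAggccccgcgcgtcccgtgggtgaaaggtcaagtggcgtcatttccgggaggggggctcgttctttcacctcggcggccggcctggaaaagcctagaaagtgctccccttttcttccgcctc
Hsph1: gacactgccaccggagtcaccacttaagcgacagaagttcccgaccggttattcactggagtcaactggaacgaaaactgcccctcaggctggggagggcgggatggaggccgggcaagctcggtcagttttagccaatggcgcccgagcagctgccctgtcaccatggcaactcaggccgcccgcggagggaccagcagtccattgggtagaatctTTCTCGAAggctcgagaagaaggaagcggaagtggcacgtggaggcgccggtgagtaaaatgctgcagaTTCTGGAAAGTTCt
Hspa1a: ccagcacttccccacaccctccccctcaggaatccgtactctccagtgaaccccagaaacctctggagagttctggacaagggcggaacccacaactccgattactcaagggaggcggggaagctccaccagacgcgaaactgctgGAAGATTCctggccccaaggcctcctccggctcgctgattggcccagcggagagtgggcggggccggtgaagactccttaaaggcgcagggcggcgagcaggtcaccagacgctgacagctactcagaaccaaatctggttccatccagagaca
Hspa1b: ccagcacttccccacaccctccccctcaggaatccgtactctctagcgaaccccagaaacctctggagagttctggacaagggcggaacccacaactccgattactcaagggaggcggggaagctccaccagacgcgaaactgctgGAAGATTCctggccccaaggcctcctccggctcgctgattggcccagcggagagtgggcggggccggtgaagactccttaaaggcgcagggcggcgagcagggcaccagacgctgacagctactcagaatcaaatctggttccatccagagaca
Cct6a: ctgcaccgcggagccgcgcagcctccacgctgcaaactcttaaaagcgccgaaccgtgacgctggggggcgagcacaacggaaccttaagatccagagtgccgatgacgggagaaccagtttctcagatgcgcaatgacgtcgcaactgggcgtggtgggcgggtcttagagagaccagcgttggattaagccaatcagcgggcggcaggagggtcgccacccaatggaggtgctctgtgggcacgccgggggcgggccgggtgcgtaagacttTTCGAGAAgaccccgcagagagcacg

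The Hspe1 window lies at chr1:55087898-55088197 on the plus strand, and its run of units starts at base -89, where 1 is the first base of the transcript. Hspd1 starts head to head with it on the minus strand, and 285 bases of its window are the same bases read the other way, so both genes share this run. The Hsph1 window, at chr5:149636287-149636586 on the minus strand, has a match at -33 and a run of 3 units at 37, within the transcript. The Hspa1a window, at chr17:34972107-34972406, and the Hspa1b window, at chr17:34959189-34959488, both on the minus strand, differ at 4 of 300 bases, and each has its match at -104. The Cct6a window, at chr5:129787106-129787405 on the plus strand, has 1 match at 25. The 17 members past the filter with a match had a median log2 ratio of 0.47, with 13 above the median of all symbols. The 32 without one had a median of 0.24, with 18 above it, and the ranges overlapped, from -0.66 to 0.997 with a match and from -1.19 to 0.74 without. A match describes the letters of a window and says nothing of binding in this tissue.

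HSP90 genes differed in size of effect. Hsp90aa1, the stress-inducible cytosolic HSP90 on chromosome 12 at 110690605-110702728 (mm10, minus strand, 11 exons), had 49.6 CPM in K14/hyal1 and 23.1 CPM in Control. The ratio was 2.15 (1.99 to 2.31). Hsp90ab1, the constitutive form, had 258 CPM in K14/hyal1 and 202 CPM in Control, a ratio of 1.28 (1.24 to 1.31), and the 2 ratio intervals do not overlap. On the log2 scale Hsp90aa1 lay 0.86 above the median of all symbols and Hsp90ab1 only 0.14 above it. Per kb of transcript the constitutive gene was far above the inducible one, with 102 against 15.1 CPM per kb in K14/hyal1 and 80.1 against 7.04 CPM per kb in Control. Of the joint CPM of the pair, Hsp90ab1 held 83.9% in K14/hyal1 and 89.7% in Control. The transcripts are 77.4% identical over their alignment.

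HSP70 genes were mostly on the K14/hyal1 side, with 10 of 12 past the filter above the median of all symbols and a median log2 ratio of 0.41. Hspa8, the constitutive HSP70 that also uncoats clathrin vesicles, had 313 CPM in K14/hyal1 and 255 CPM in Control, a ratio of 1.23 (1.20 to 1.26). Per length it was the highest of the family in both libraries, at 131 CPM per kb in K14/hyal1 and 107 CPM per kb in Control. Hspa9, the mitochondrial HSP70, had 89.3 CPM in K14/hyal1 and 57.7 CPM in Control, a ratio of 1.55 (1.47 to 1.63). The exchange factor genes Hspa4l and Hspa4 differed from each other, with ratios of 1.69 (1.57 to 1.83) and 1.24 (1.16 to 1.33). Hspa4l had 41.1 CPM in K14/hyal1 and 24.3 CPM in Control, and Hspa4 had 48.7 CPM in K14/hyal1 and 39.3 CPM in Control.

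The extremes of the HSP70 family were both atypical members. Hspa13, an HSP70 of the endoplasmic reticulum that lacks the client-binding domain, lies on chromosome 16 at 75745431-75767104 (minus strand, 5 exons). It had 19.9 CPM in K14/hyal1 and 9.41 CPM in Control, a ratio of 2.12 (1.88 to 2.38). Hspa12a, a distant relative on chromosome 19 at 58795750-58943654 (minus strand, 12 exons), had 12.7 CPM in K14/hyal1 and 30.4 CPM in Control. It was 2.38-fold lower in K14/hyal1 (2.13 to 2.67), and its log2 ratio of -1.19 was the lowest of all members. Its relative Hspa12b, which is expressed in endothelium, was higher in K14/hyal1, with 3.27 CPM there and 1.96 CPM in Control, a ratio of 1.67 (1.26 to 2.20). Hspa12a overlaps Eno4 on the opposite strand. The endothelial markers Cdh5, Pecam1, Kdr, Tie1, Emcn and Lyve1 summed to 68.0 CPM in K14/hyal1 and 30.6 CPM in Control. Their ratios ran from 1.47 for Cdh5 to 4.24 for Lyve1, which alone had 21.5 CPM in K14/hyal1 and 5.07 CPM in Control. The part of these markers in the Hspa12b difference was not tested. In bulk tissue, fewer cells of a type and less RNA per cell cannot be told apart. The low end of the family held, beside Hspa12a, Hspa14, a ribosome-associated HSP70, with 14.2 CPM in K14/hyal1 and 12.6 CPM in Control, and Hspa2, a germ cell HSP70, with 10.2 CPM in K14/hyal1 and 8.67 CPM in Control. Relative to the median of all symbols these were at -0.05 and 0.00, so they did not stand out from the table.

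**Figure D2:**
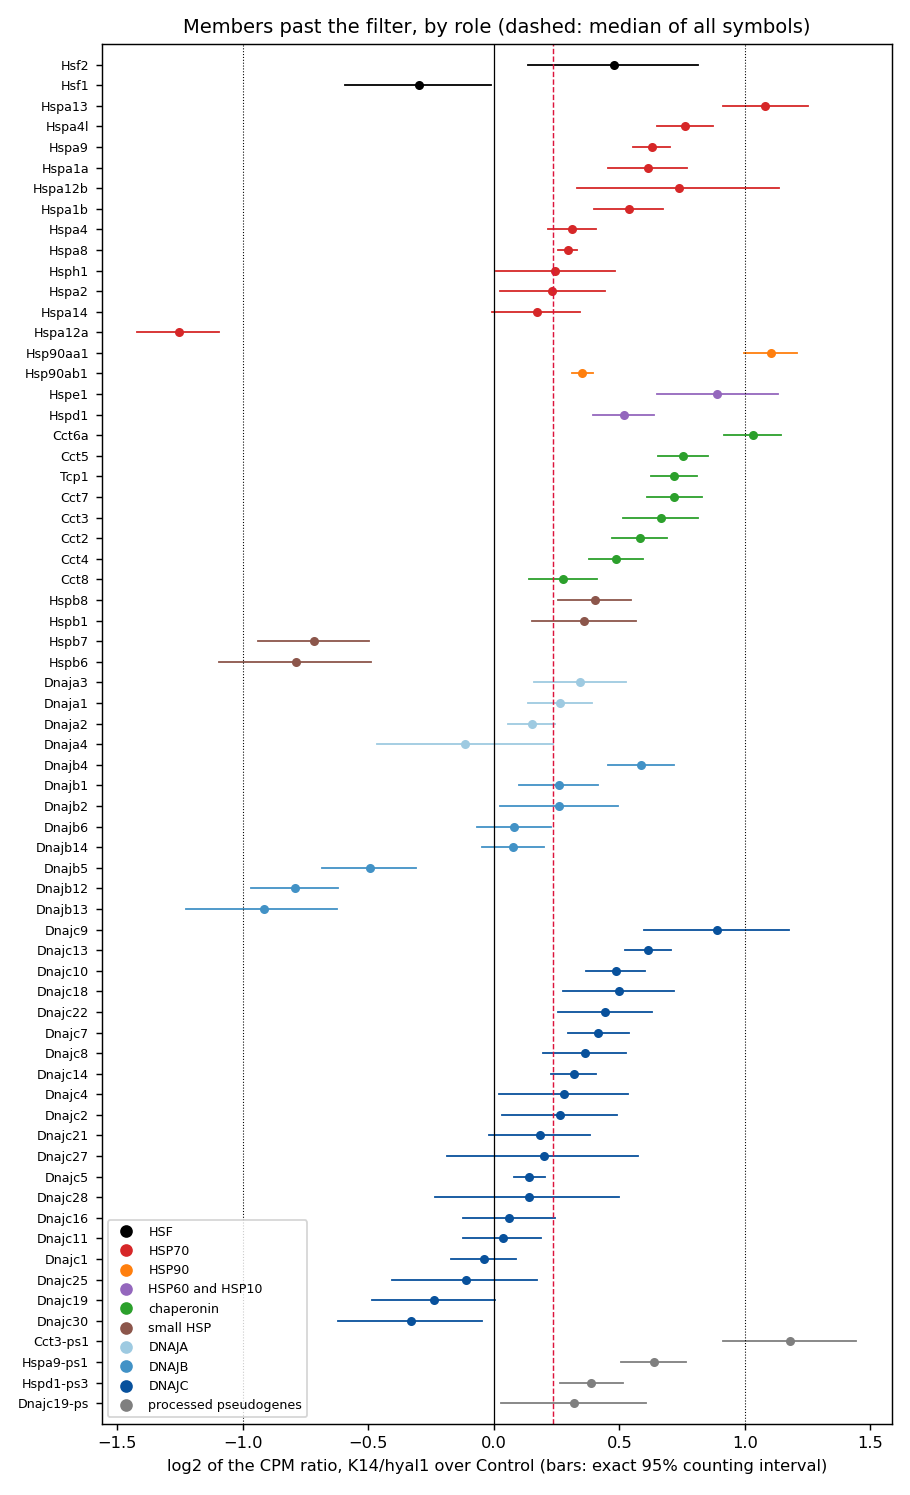
log2 of the CPM ratio, K14/hyal1 over Control, for each of the 66 members past the filter, grouped by role, with exact 95% counting intervals. The dashed line is the median of all symbols on the same scale, 0.23; every chaperonin subunit lies to its right, and Hspa12a, Hspb6, Hspb7, Dnajb12 and Dnajb13 lie furthest to the left.

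The mitochondrial chaperonin pair was higher in the K14/hyal1 library. Hspd1, which encodes HSP60, had 31.6 CPM in K14/hyal1 and 22.1 CPM in Control, a ratio of 1.43 (1.31 to 1.56). Hspe1, its HSP10 lid, had 9.37 CPM in K14/hyal1 and 5.05 CPM in Control, a ratio of 1.85 (1.57 to 2.19). Their log2 ratios were 0.29 and 0.57 above the median of all symbols. Per length Hspd1 had 13.0 and Hspe1 12.1 CPM per kb in K14/hyal1, against 9.11 and 6.53 CPM per kb in Control, without the reads of the near-identical Hspd1-ps3, which was counted apart. The other mitochondrial members were mixed: the J-domain gene Dnaja3 had a log2 ratio of 0.32, while Dnajc30 had -0.28, and the 8 mitochondrial members past the filter had a median of 0.21.

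Each of the 8 chaperonin subunit genes past the filter had more CPM in K14/hyal1 than in Control and lay above the median of all symbols, as 50% of symbols do. Their median log2 ratio was 0.66, which is 0.45 above that median. Cct6a, subunit zeta, showed the largest difference, with 43.1 CPM in K14/hyal1 and 21.1 CPM in Control, a ratio of 2.04 (1.89 to 2.21), and its log2 ratio of 0.997 fell just short of the 2-fold rule. Cct8, subunit theta, showed the smallest, with 23.9 CPM in K14/hyal1 and 19.7 CPM in Control, a ratio of 1.21 (1.10 to 1.33). The intervals of these 2 subunits are far apart, so the 8 did not share 1 ratio within counting error. Between them lay Cct5, Tcp1 and Cct7, with ratios of 1.69, 1.65 and 1.65, then Cct3 at 1.59, Cct2 with a log2 ratio of 0.56, and Cct4 at a ratio of 1.40. At 1.5-fold on the log2 scale 5 of 8 were higher, against 17.7% of all symbols. After scaling to the median symbol all 8 stayed above 0, from 0.04 to 0.77, and 1 was 1.5-fold higher, against 8.14% of all symbols.

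The 8 subunits occupy 1 position each in both rings, so their proteins are needed in equal numbers. Transcript levels per length ran from 9.99 CPM per kb (Cct8) to 28.1 CPM per kb (Cct5) in K14/hyal1 and from 7.14 CPM per kb (Cct3) to 16.7 CPM per kb (Cct5) in Control. The highest was thus 2.82 times the lowest in K14/hyal1 and 2.34 times the lowest in Control. Cct5 and Tcp1 were the highest subunits in both libraries, and Cct3 and Cct8 the lowest. Cct3-ps1, a near-identical copy, held 27.4% of the joint value with Cct3 in K14/hyal1 and 20.9% in Control, so the place of Cct3 and the spread in Control depend on how reads were split. The testis form Cct6b and the single-exon relative Cct8l1 were under the filter, at 0.0131 and 0.310 CPM in K14/hyal1 and 0.229 and 0.671 CPM in Control. Tcp1, Cct6a, Cct7 and Cct8 overlap genes on the opposite strand in the annotation, and the labels do not say whether strand was used in counting.

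**Figure D3:**
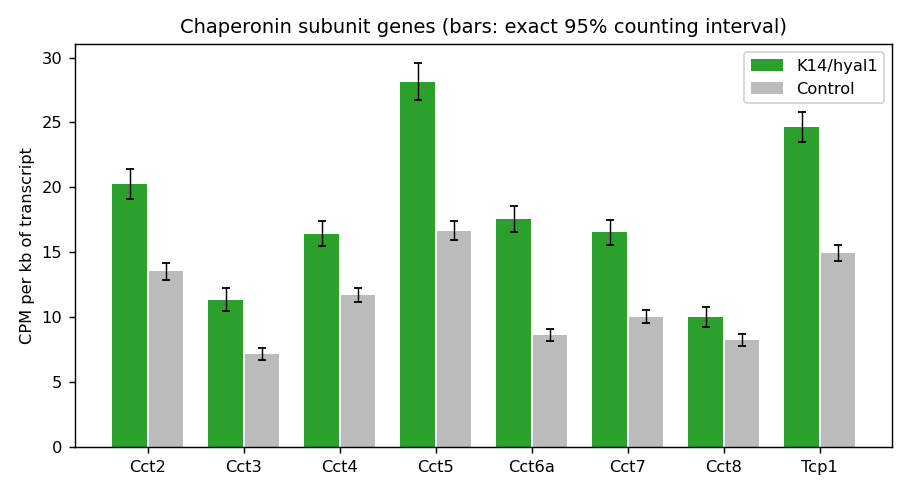
CPM per kb of transcript for the 8 chaperonin subunit genes past the filter, K14/hyal1 in green and Control in grey, with exact 95% counting intervals. The K14/hyal1 bar is the higher of each pair, and Cct5 and Tcp1 are the highest subunits in both libraries.

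Markers of dividing cells were also higher in K14/hyal1. Mki67, Top2a, Cdk1, Ccnb1, Pcna and Mcm5 summed to 277 CPM in K14/hyal1 and 192 CPM in Control, and all 6 lay above the median of all symbols, with a median log2 ratio of 1.07. Mki67 alone held 178 CPM in K14/hyal1 and 152 CPM in Control, and lay only 0.02 above the median of all symbols. Dnajc9, a J-domain histone chaperone used in DNA replication, had 6.51 CPM in K14/hyal1 and 3.52 CPM in Control, a ratio of 1.85 (1.51 to 2.26). The part of dividing cells in these differences was not tested.

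Small heat shock proteins split into 2 pairs. Hspb8, a partner of BAG3, had 21.3 CPM in K14/hyal1 and 16.1 CPM in Control, a ratio of 1.32 (1.19 to 1.46). Hspb1, the stress-inducible HSP27, had 10.7 CPM in K14/hyal1 and 8.33 CPM in Control, a ratio of 1.28 (1.11 to 1.48). Hspb6 and Hspb7, which are abundant in muscle, were lower. Hspb7 had 7.48 CPM in K14/hyal1 and 12.3 CPM in Control, 1.64-fold lower (1.41 to 1.92), and Hspb6 had 4.03 CPM in K14/hyal1 and 6.96 CPM in Control, 1.73-fold lower (1.40 to 2.14). The 6 smooth muscle markers Acta2, Actg2, Myh11, Tagln, Des and Cnn1 had log2 ratios from 0.05 to 0.58 and summed to 3247 CPM in K14/hyal1 and 2789 CPM in Control. Of these markers 2 lay above and 4 below the median of all symbols. The part of muscle in the Hspb6 and Hspb7 differences was not tested. Hspb6 overlaps Proser3 and Lin37 on the opposite strand.

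J-domain genes, the largest family, lay evenly around the rest of the table. Of 40, 32 passed the filter, with a median log2 ratio of 0.16, and 15 lay above and 17 below the median of all symbols. The most abundant in CPM was Dnajc5, the cysteine string protein of secretory vesicles, with 114 CPM in K14/hyal1 and 103 CPM in Control, a ratio of 1.10 (1.06 to 1.15). Dnajc13, a J-domain protein of endosomes, had 57.1 CPM in K14/hyal1 and 37.3 CPM in Control, a ratio of 1.53 (1.44 to 1.63). Dnajc14 had 54.2 CPM in K14/hyal1 and 43.5 CPM in Control, at 0.10 above the median of all symbols. Dnajb4, an HSP40 of the same class as Dnajb1, had 27.4 CPM in K14/hyal1 and 18.2 CPM in Control, a log2 ratio of 0.56. Dnaja1, a class A HSP40 of the cytosol, had 27.1 CPM in K14/hyal1 and 22.6 CPM in Control, a ratio of 1.20 (1.10 to 1.31).

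The 3 lowest J-domain genes were of the Dnajb class, and their intervals lay below equality. Dnajb12, a membrane protein of the endoplasmic reticulum used in protein degradation, had 12.1 CPM in K14/hyal1 and 21.0 CPM in Control, 1.73-fold lower (1.54 to 1.95). Dnajb5 had 10.9 CPM in K14/hyal1 and 15.3 CPM in Control, 1.41-fold lower (1.24 to 1.61). Dnajb13, a gene of sperm tails and cilia, had 4.05 CPM in K14/hyal1 and 7.63 CPM in Control, 1.89-fold lower (1.54 to 2.34). Dnajb13 overlaps Ucp2 on the opposite strand, and without strand the reads of the 2 genes cannot be told apart. Outside this class, Dnajc30 was the lowest, with 4.89 CPM in K14/hyal1 and 6.15 CPM in Control. The 8 endoplasmic reticulum members ranged from Dnajb12 to Hspa13 with a median log2 ratio of 0.07.

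Near-identical copies make some of these values uncertain, because a read that matches both can be assigned to either. Hspd1-ps3, a processed pseudogene on chromosome 11 at 41498737-41500458, is 99.0% identical to the Hspd1 transcript over 1722 bases. It had 29.1 CPM in K14/hyal1 and 22.2 CPM in Control, about as much as Hspd1 itself. Gene and copy together had 60.7 CPM in K14/hyal1 and 44.3 CPM in Control, a ratio of 1.37 (1.29 to 1.45). Hspa9-ps1, 95.2% identical to Hspa9, held 24.8% of the joint value in K14/hyal1 and 24.7% in Control, and the joint ratio was 1.55 (1.48 to 1.62). Cct3-ps1, 92.7% identical to Cct3, had 8.44 CPM in K14/hyal1 and 3.73 CPM in Control, and gene and copy together had a ratio of 1.73 (1.58 to 1.89). For Dnajc19 and Dnajc19-ps, 99.1% identical, the gene had a ratio of 0.848 and the copy 1.25, and together they had 0.991 (0.871 to 1.13). The direction for Dnajc19 therefore depends on how reads were split. Hspa1a and Hspa1b are 99.3% identical over 2209 bases, and together they had 45.0 CPM in K14/hyal1 and 30.3 CPM in Control, a ratio of 1.48 (1.38 to 1.59).

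**Figure D4:**
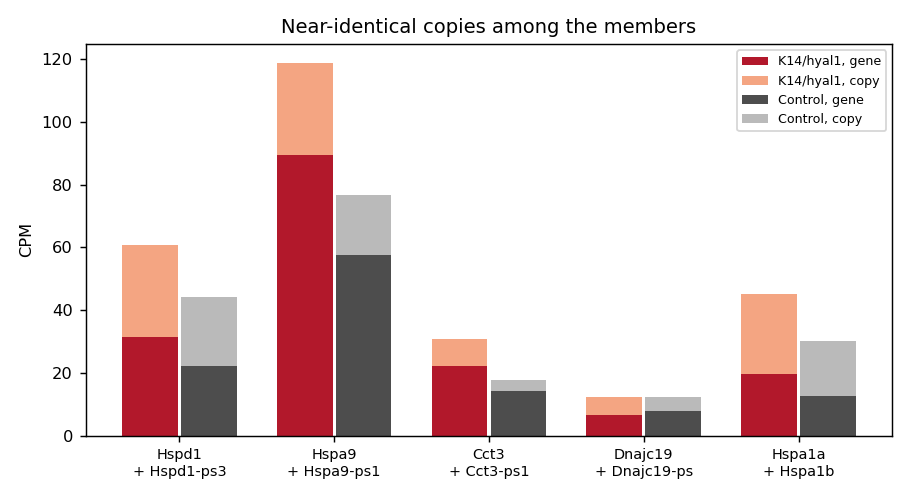
CPM of 5 genes (dark) and of a near-identical copy of each (light, stacked on top), K14/hyal1 left of Control. The copy holds about as much as the gene for Hspd1, and the joint bar is higher in K14/hyal1 for each pair other than Dnajc19, where the joint bars are nearly level.

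The table gives transcript rows under the gene symbol only. On the row with the highest mean of each symbol, 6 members were 2-fold higher, namely Hsp90aa1, Hspa13, Cct3, Cct5, Cct6a and Tcp1, against 5.19% of all symbols. For Tcp1 that row led only in K14/hyal1, with 34.8% of the gene's CPM there and 26.6% in Control, so the choice of row favoured its call, while for the other 5 the same row led in both libraries. For Hsp90aa1 the most abundant of 7 rows held 85.8% of the gene's CPM in K14/hyal1 and 80.9% in Control and had a ratio of 2.28. For Hspa13 the most abundant of 3 rows held 87.5% in K14/hyal1 and 68.5% in Control and had a ratio of 2.70, while another row was at 1.33 CPM in K14/hyal1 and 2.12 CPM in Control. For Hsph1 the leading row was also the higher one in K14/hyal1, with 4.91 CPM against 2.52 CPM in Control, although the gene as a whole lay at the median of all symbols. Cct6a had 92.7% of its CPM in 1 row in K14/hyal1 and 90.4% in Control.

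Partners of the chaperones showed a range of differences. Of 25 co-chaperones of HSP70 and HSP90 past the filter, 15 lay above the median of all symbols, 4 (16%) were 1.5-fold higher and 1 (4%) was 1.5-fold lower, close to the 17.7% and 4.89% of all symbols. St13, which stabilises HSP70 with its client, had 37.4 CPM in K14/hyal1 and 20.1 CPM in Control, and Bag4, an exchange factor, had 17.5 CPM in K14/hyal1 and 9.37 CPM in Control. The lowest were Bag6, with 33.6 CPM in K14/hyal1 and 39.4 CPM in Control, and Fkbp5, an HSP90 co-chaperone induced by glucocorticoids, with 20.9 CPM in K14/hyal1 and 36.7 CPM in Control. Fkbp5 was 1.76-fold lower in K14/hyal1. Mitochondrial partners were all above the median of all symbols, 6 of 6, with a median log2 ratio of 0.63. Trap1, the mitochondrial HSP90, had 23.6 CPM in K14/hyal1 and 13.7 CPM in Control, Grpel2, an exchange factor of Hspa9, had 30.6 CPM in K14/hyal1 and 19.0 CPM in Control, and the proteases Lonp1 and Clpp had the smallest differences, with log2 ratios of 0.36 and 0.26.

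Prefoldin, which hands clients to the chaperonin, and other chaperonin cofactors had a median log2 ratio of 0.35, with 8 of 10 above the median of all symbols. The prefoldin subunit gene Vbp1 had 10.8 CPM in K14/hyal1 and 5.68 CPM in Control, and Pdcl3, a phosducin-like cofactor, had 17.6 CPM in K14/hyal1 and 11.4 CPM in Control. Pdrg1 and Txndc9 were lowest, with log2 ratios of -0.20 and 0.11. Tubulin and actin clients had a median of 0.74, and 2 of 12 were 2-fold higher, against 3.75% of all symbols. These were Tuba1b, with 36.7 CPM in K14/hyal1 and 15.8 CPM in Control, and Tuba1a, with 33.0 CPM in K14/hyal1 and 14.5 CPM in Control. Relative to the median of all symbols their log2 ratios were 0.95 and 0.92, short of 2-fold. The list was uneven, since Actg1 and Tubb3 had log2 ratios of -0.24 and -0.37. Tubulin genes are closely related, so reads may have been split between them.

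Other targets of HSF1 lay on both sides of the table's median, with 3 of 7 at 1.5-fold higher and 1 at 1.5-fold lower, against 17.7% and 4.89% of all symbols. Serpinh1, the collagen chaperone HSP47, had 57.3 CPM in K14/hyal1 and 31.3 CPM in Control, and Hmox1 had 3.45 CPM in K14/hyal1 and 1.73 CPM in Control. Bag3, a stress-inducible HSP70 co-chaperone, had 11.8 CPM in K14/hyal1 and 21.5 CPM in Control, 1.83-fold lower (1.62 to 2.06). Fibroblast markers summed to 875 CPM in K14/hyal1 and 365 CPM in Control, with 5 of 6 above the median of all symbols. The exception was the collagen gene Col1a1, with 28.7 CPM in K14/hyal1 and 42.0 CPM in Control, a ratio of 0.684 (0.632 to 0.740). The part of these markers in the difference of the collagen chaperone was not tested. The cold-inducible genes Cirbp and Rbm3 had 28.3 and 40.4 CPM in K14/hyal1, against 16.5 and 24.9 CPM in Control.

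Chaperones of the endoplasmic reticulum, outside the set, had a median log2 ratio of 0.44, with 7 of 10 above the median of all symbols. Canx and Calr, the lectin chaperones of glycoproteins, had 165 and 130 CPM in K14/hyal1, against 102 and 81.1 CPM in Control, while Pdia3 and Dnajb9 had log2 ratios of 0.08 and 0.03. Immediate early genes, which respond to handling of tissue as well as to signals, had a median of 0.14. Dusp1 and Ier2 were highest, with log2 ratios of 0.86 and 0.38, and Egr1 and Fosb lowest, with -0.85 and -0.92.

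**Figure D5:**
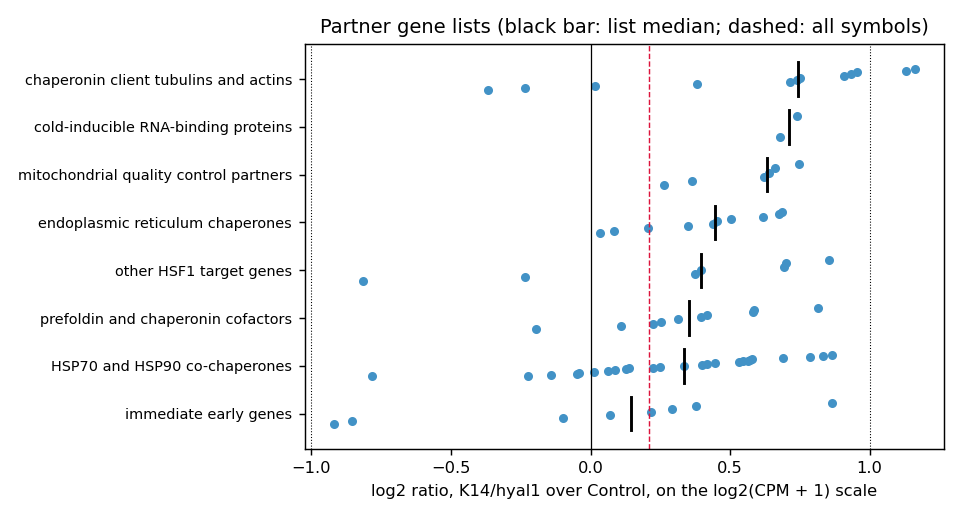
log2 ratio, K14/hyal1 over Control, of each gene past the filter in 8 lists of partner and related genes, with the list median as a black bar and the median of all symbols as a dashed line. Tubulin and actin clients have the highest median, 0.74, and immediate early genes the lowest, 0.14.

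The 20 members under the filter added little. The most abundant of them by mean was Dnajc15, a J-domain protein of the mitochondrion, with 2.62 CPM in K14/hyal1 and 1.69 CPM in Control. The genes with an Hspb symbol, Hspb2, Hspb3, Hspb9 and Hspb11, had at most 1.79 CPM in K14/hyal1 and 1.64 CPM in Control, and Hspb3 had 0 reads in K14/hyal1 and 3 in Control. Dnajc12, a partner of aromatic amino acid hydroxylases, had 58 estimated reads in K14/hyal1 and 55 in Control, a ratio of 2.20 (1.51 to 3.27). The remaining pseudogenes of Hspe1, Hspd1 and Dnaja1 had at most 0.689 CPM in K14/hyal1 and 0.933 CPM in Control.

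Both libraries held RNA of several layers of the colon wall beside the labelled lamina propria. Epithelial markers summed to 2876 CPM in K14/hyal1 and 2766 CPM in Control, with 0 of 6 above the median of all symbols. Macrophage markers summed to 121 CPM in K14/hyal1 and 34.7 CPM in Control, with 6 of 6 above it. Plasma cell markers summed to 177 CPM in K14/hyal1 and 58.6 CPM in Control, of which Sdc1 held 72.1 and 46.8 CPM. The 3 past the filter, Jchain, Igha and Sdc1, had ratios of 13.2, 8.24 and 1.54. Of the 3 under it, Derl3 was lower in K14/hyal1. Markers of neurons and glia summed to 13.8 CPM in K14/hyal1 and 14.9 CPM in Control, and those of skeletal muscle to 20.4 CPM in K14/hyal1 and 16.7 CPM in Control. Of the 53 markers in 9 lists, 0 had no read in a library, and the fewest reads were 1. The part of cell make-up in the differences of the members was not tested.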

How the data were processed

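RNA-seq of 1 K14/hyal1 and 1 Control colon library was used; per the labels' protocols a TruSeq Stranded mRNA kit and an Illumina HiSeq were used. Partek and mm10 are named in the submitters' processing notes. For the aligner, the counting rule and strand, nothing is stated there. The deposited normalized counts, 72178 transcript rows, have no named unit and were read as CPM. Gene values were multiples of 1 step per library, 0.0345 in K14/hyal1 and 0.0164 in Control, as scaled counts are. That the scale is 1000000 was assumed, since the steps do not show it. All symbols summed to 475975 in K14/hyal1 and 416434 in Control, short of 1000000. Within a tolerance of 0.1 read, 82.9% and 81.5% of values up to 300 reads were whole, so reads are estimates and no count test was run. From each row 0.0001 was subtracted, and a symbol's rows were added up. A second deposited table gives, per the file headers, least-squares means, taken here as CPM, and the authors' ratio of K14/hyal1 to Control. Its signed fold change, a score in which values below 1 are turned to negative reciprocals, was deposited by the authors and not used. The p-values and adjusted p-values deposited by the authors come from a model that is not stated and were not used. A total signal per gene, deposited by the authors as a sum over more libraries, was not used. Other deposited tables, of unclear unit or on skin, were not used here. For 70 of the 72 members in the gene table, both values were within 1% of the sums.

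The filter was the median of symbols above 0. Counting error was given by 95% intervals, exact Poisson for levels and exact Clopper-Pearson on the joint reads for ratios; without molecular identifiers, reads are not independent molecules. No sample column was left unused (0). Genes named were all members of small groups, the extremes and most abundant of large ones, those at 2-fold, HSF1-inducible members, and the extremes of each list; 1 gene that this rule selects is not reported here. Other genes named in the text, such as Hspa12b, Dnaja3, Dnajb6, Dnajc19, Dnajc30, Dnajc12, members under the filter and the pseudogenes, were chosen after their values were seen. Members, lists and rules were chosen with earlier results of these data known. Lengths and coordinates are of GENCODE M21 (mm10), using the principal or longest coding transcript; identities are from local alignments of those transcripts. The steps were tested on simulated data. Biopython 1.88, matplotlib 3.10.9, scipy 1.17.1, pandas 2.3.3 and numpy 2.4.6 ran under Python 3.11.15. Protein sequences were not analysed here.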

Additional observations from a re-analysis of the deposited data

How the results depend on the processing

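No paired analysis was possible because each genotype had 1 library. With the deposited gene table, which holds 72 of the members, group medians moved by less than counting error. The alternatives were 11 planned settings and 2 chosen after seeing the data, which left out the processed pseudogenes or added them to their genes. The number of members 2-fold higher was 2 as reported, 4 with a pseudocount of 0.1 (5.54% of all symbols), 6 from the most abundant transcript row (5.19% of all symbols), where the row of Tcp1 led only in K14/hyal1, 14 at 1.5-fold, and 0 with a pseudocount of 10 or after scaling to the median symbol, by TMM or to totals without the 20 most abundant symbols. The number lower was 1 (1.54% of all symbols), 5 at 1.5-fold (4.89% of all symbols) and 0 with a pseudocount of 10. Hsp90aa1 and Hspa13 thus passed 2-fold only on the deposited scale, while Hspa12a passed it under all 3 scalings. Among all symbols 70.9% of 2-fold differences were higher as deposited, against 46.3%, 51.3% and 53.7% after these scalings. With the filter at a mean of 10, 43 members passed. The median of all symbols was 0.21 as deposited and 0 after scaling to it.

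Members at 1.5-fold higher were 14 as deposited, against 17.7% of all symbols, and 4 after scaling to the median symbol, against 8.14%. TMM and totals without the 20 most abundant symbols gave 5 and 6 members, and for these the share of all symbols was not computed. Chaperonin subunits at 1.5-fold higher were 5 as deposited and 1 after each of these scalings. Relative to the median of all symbols, group medians moved by more than the single-gene width mainly without a filter. Leaving out the filter also admits members under it and takes the median of all symbols to 0.059. Without it they were 0.45 for HSP70, 0.65 for HSP90, -0.11 for genes with an Hspb symbol, -0.011 for pseudogenes, 0.38 for HSF1-inducible and 0.26 for mitochondrial members. For partner lists they were 0.68 for tubulin and actin clients, 0.34 for other HSF1 targets, 0.39 for endoplasmic reticulum chaperones, 0.65 for cold-inducible genes and 0.084 for immediate early genes. With a pseudocount of 10 the clients were at 0.35 and the other HSF1 targets at 0.086, and with the filter at a mean of 10 small heat shock proteins were at 0.15, since only Hspb8 remained. Chaperonin subunits, at 0.45, moved by less than the single-gene width of 0.11 under every setting run. They lay between 0.38 with a pseudocount of 10 and 0.54 without a filter. Of 72 named genes, 6 changed the sign of the log2 ratio under a scaling: Dnajb9, Dnajc5, Hspa14, Hspa2, Pdia3 and Txndc9. Counting error limits members under about 10 CPM.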
